A study of Mus musculus with 2 samples.

Results

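The T cell receptor gene segments were described in sorted effector regulatory T cells of Nrn1-/- and Nrn1+/- mice. Members were the rows whose symbol begins with Tra, Trb, Trd or Trg followed by v, d, j or c and whose annotated type is a T cell receptor segment. The rule found 259 of 46511 rows, made up of 171 V, 4 D, 80 J and 4 C segments. Of these, 94 had a mean of at least 1 FPKM over the libraries and 142 were listed at 0 FPKM in both. FPKM are fragments per kilobase of transcript scaled by depth, so levels can be set side by side between segments, although V segments are short (155 to 595 bases), which makes their effective length uncertain.

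Poly(A) RNA was sequenced in 2 libraries, 1 per genotype, Nrn1-/- and Nrn1+/-. Nrn1 is the gene for neuritin, which sits on the cell surface through a lipid anchor. Cells labelled Nrn1-/- were set against heterozygous cells, although the title of the Nrn1+/- library calls it wild type. Both genotypes were C57BL/6 mice on the Foxp3DTRgfp background, in which Foxp3-expressing cells carry a green fluorescent reporter and a diphtheria toxin receptor. Cells were sorted as CD4+CD25+Cd62LlowCD44highFoxp3gfp+. The sort fixes Cd4, Il2ra and Foxp3 as markers of the cells. The labels state no age, sex, tissue or number of mice per library. With 1 library per genotype there is no replicate check and no test, and every difference below compares these libraries, not the genotypes.

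A T cell builds the alpha and beta chains of its receptor by joining a V segment to a J segment, with a D segment between them in the beta chain, then splicing the joined exon to a constant segment. The V segment carries the regions that contact the major histocompatibility molecule, so the set of V segments in use is a coarse view of the repertoire. Regulatory T cells use alpha and beta chains, while gamma and delta chains belong to a separate T cell lineage. In this mouse strain the Tra locus holds duplicated blocks, whose V copies carry the letters d and n, and Trd segments lie inside the Tra locus.

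The sequences below show how far segments discussed in the results can be told apart. Each is the V exon on the plus strand of GRCm38, read from the GENCODE M21 transcripts. Trbv13-2, Trbv13-3 and Trbv13-1 encode the Vbeta8 family and lie on chromosome 6 at chr6:41121539-41121832, chr6:41130292-41130585 and chr6:41116175-41116468. Capitals mark the bases that differ from Trbv13-2, which number 24 in Trbv13-3 (91.8% identity) and 33 in Trbv13-1 (88.8% identity).
Trbv13-2: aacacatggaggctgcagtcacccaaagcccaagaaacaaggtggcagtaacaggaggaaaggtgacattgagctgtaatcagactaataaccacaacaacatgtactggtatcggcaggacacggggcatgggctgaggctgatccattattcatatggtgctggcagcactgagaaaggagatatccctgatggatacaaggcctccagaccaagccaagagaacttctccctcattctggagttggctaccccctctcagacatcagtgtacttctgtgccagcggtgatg
Trbv13-3: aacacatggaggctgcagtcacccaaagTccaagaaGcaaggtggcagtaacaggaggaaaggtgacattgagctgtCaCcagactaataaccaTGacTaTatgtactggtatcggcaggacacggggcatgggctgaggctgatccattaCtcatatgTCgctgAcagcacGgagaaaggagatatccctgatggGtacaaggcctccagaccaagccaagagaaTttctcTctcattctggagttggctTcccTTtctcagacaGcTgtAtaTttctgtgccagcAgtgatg
Trbv13-1: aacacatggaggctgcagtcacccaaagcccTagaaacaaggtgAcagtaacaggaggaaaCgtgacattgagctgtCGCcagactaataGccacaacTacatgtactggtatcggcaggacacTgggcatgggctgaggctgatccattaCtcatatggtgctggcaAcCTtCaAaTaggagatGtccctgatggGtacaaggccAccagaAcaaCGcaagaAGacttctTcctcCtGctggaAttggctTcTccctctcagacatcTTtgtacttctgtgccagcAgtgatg

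Trav4-4-dv10 at chr14:53683899-53684177 was the V segment with the highest alpha chain level, and Trav4d-4 at chr14:52991111-52991389 is its copy in the d block. Capitals mark the 8 bases of Trav4d-4 that differ from Trav4-4-dv10 (97.1% identity). The n block copy, Trav4n-4 at chr14:53302281-53302559, has the same letters as Trav4d-4 and is not printed.
Trav4-4-dv10: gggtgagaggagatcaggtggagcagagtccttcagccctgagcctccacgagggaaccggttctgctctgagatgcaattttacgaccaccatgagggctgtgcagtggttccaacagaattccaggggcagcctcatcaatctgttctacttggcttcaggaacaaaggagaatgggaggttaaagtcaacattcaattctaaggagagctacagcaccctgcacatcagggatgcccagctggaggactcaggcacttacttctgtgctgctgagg
Trav4d-4: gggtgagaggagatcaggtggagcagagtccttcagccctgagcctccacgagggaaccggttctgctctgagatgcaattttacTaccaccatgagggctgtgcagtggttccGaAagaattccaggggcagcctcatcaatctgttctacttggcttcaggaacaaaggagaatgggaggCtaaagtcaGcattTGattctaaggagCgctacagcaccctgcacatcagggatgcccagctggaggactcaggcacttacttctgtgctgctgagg

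The targeted gene followed its labels, with Nrn1 at 4.62 FPKM in Nrn1-/- cells, against 66.5 FPKM in Nrn1+/- cells. Regulatory T cell markers were high in both, with Foxp3 at 195 FPKM in Nrn1-/- cells, against 257 FPKM in Nrn1+/- cells. All 5 of the regulatory T cell list were lower in the Nrn1-/- library, against 47.7% of all rows with a mean of at least 1 FPKM. None was 1.5-fold lower, against 5.27% of those rows. Summed marker levels of other cell types in the Nrn1-/- and the Nrn1+/- library were 7.59 and 5.77 FPKM for B cells, 3.23 and 1.39 for plasma cells, 0.708 and 0.850 for myeloid cells, 2.26 and 2.91 for dendritic cells, 4.29 and 4.44 for natural killer cells and 3.93 and 4.92 for CD8 T cells. Single genes made up most of some sums. Sdc1 was at 2.62 FPKM in Nrn1-/- cells, against 0.972 in Nrn1+/- cells, in the plasma cell list, while Jchain and Mzb1 were below 1 FPKM in both. Cd79b was at 5.14 (Nrn1-/-) and 4.85 FPKM (Nrn1+/-) in the B cell list and Cd8b1 at 3.45 (Nrn1-/-) and 4.65 FPKM (Nrn1+/-) in the CD8 list. The part of these cell types in the receptor values was not tested. The spacing of low FPKM values put 1 fragment at 0.0254 FPKM times kilobase in Nrn1-/- cells, against 0.0194 in Nrn1+/- cells, so a given FPKM rested on fewer fragments in the Nrn1-/- library. Over the 12351 rows with a mean of at least 1 FPKM, the median log2 ratio was 0.02 and 47.7% were lower in the Nrn1-/- library. An exact 0 is written as listed at 0, because all 37 mitochondrial rows were listed at 0 in both libraries.

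Every rearranged transcript carries a constant segment of its chain, which in the beta chain is either Trbc1 or Trbc2. The constant segments were all lower in the Nrn1-/- library by less than 1.5-fold. Of all rows tested, 47.7% were lower and 5.27% were at least 1.5-fold lower. Trac (chr14:54220521-54224206), the alpha chain constant segment, was at 590 FPKM in Nrn1-/- cells, against 682 FPKM in Nrn1+/- cells, a log2 ratio of -0.21. Here and below a log2 ratio is log2 of Nrn1-/- plus 1 FPKM over Nrn1+/- plus 1 FPKM. Trbc1 (chr6:41538218-41539881) was at 217 FPKM in Nrn1-/- cells, against 263 FPKM in Nrn1+/- cells, a log2 ratio of -0.27. Trbc2 (chr6:41546730-41548352), used by chains joined in the second D-J-C cluster, was at 399 FPKM in Nrn1-/- cells, against 433 FPKM in Nrn1+/- cells, a log2 ratio of -0.12. Trbc1 held 35.3% of the beta constant level in Nrn1-/- cells, against 37.7% in Nrn1+/- cells. The 2 beta constant segments are near copies, so their split depends on how shared fragments were assigned. In bulk RNA, fewer cells with a transcript and less of it per cell cannot be told apart.

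Beta chain V segments were lower in Nrn1-/- cells in 19 (86.4%) of the 22 rows with a mean of at least 1 FPKM, against 47.7% of all rows tested. They had a median log2 ratio of -0.27 against 0.02 over all rows tested. Their summed level was 960 FPKM in Nrn1-/- cells, against 1157 FPKM in Nrn1+/- cells, a ratio of 0.830. On the log2 scale with its pseudocount no Trb V segment was 2-fold higher or 2-fold lower, where 1.98% of all rows tested were 2-fold or more higher and 1.11% were 2-fold or more lower. At 1.5-fold on the same scale, 3 were lower, which is 13.6% against 5.27% of all rows tested, and none was higher against 7.51% of all rows tested. The 3 were Trbv24, Trbv13-3 and Trbv12-2. The pseudocount sets these counts. In FPKM alone Trbv12-1, Trbv14, Trbv20 and Trbv30 were also more than 1.5-fold lower, and Trbv24, at a ratio of 0.498, was more than 2-fold lower. No share over all rows was taken without the pseudocount. The 3 segments that were higher, Trbv13-1, Trbv13-2 and Trbv4, turned lower under each of the other scalings tried. Those scalings moved the median of all rows tested by -0.12, -0.27 and -0.11. The 3 log2 ratios, 0.048, 0.005 and 0.041, were smaller than each of these moves, so the turn is not particular to these segments.

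The order of the beta chain segments was much the same in both libraries. Trbv13-2, of the Vbeta8 family, was at 111 FPKM in each library and held 11.6% of the summed Trb V level in Nrn1-/- cells, against 9.58% in Nrn1+/- cells. Trbv1, the Vbeta2 segment, which lies apart at the upstream end of the locus, was at 102 FPKM in Nrn1-/- cells, against 118 FPKM in Nrn1+/- cells. Trbv5, the Vbeta1 segment, was at 81.4 FPKM in Nrn1-/- cells, against 93.4 FPKM in Nrn1+/- cells. Those were the 3 highest by mean FPKM, and all 10 of the 10 highest segments of the Nrn1-/- library were also the 10 highest of the Nrn1+/- library. This order depends on the division by length. In recovered fragments Trbv13-2 (340 bases) had 613 in Nrn1-/- cells, against 731 in Nrn1+/- cells. Trbv1 (417 bases) had 870 (Nrn1-/-) and 1249 (Nrn1+/-), and Trbv19 (566 bases) had 714 (Nrn1-/-) and 1233 (Nrn1+/-). The 10 highest held 73.4% of the Trb V level in Nrn1-/- cells, against 71.7% in Nrn1+/- cells. Across the 22 rows, Pearson's r of log2 levels was 0.98 and Spearman's rho 0.97, a description over segments read from the same 2 libraries. The effective number of segments, which is the exponential of the Shannon entropy of the shares, was 17.1 in Nrn1-/- cells, against 17.9 in Nrn1+/- cells.

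**Figure D1:**
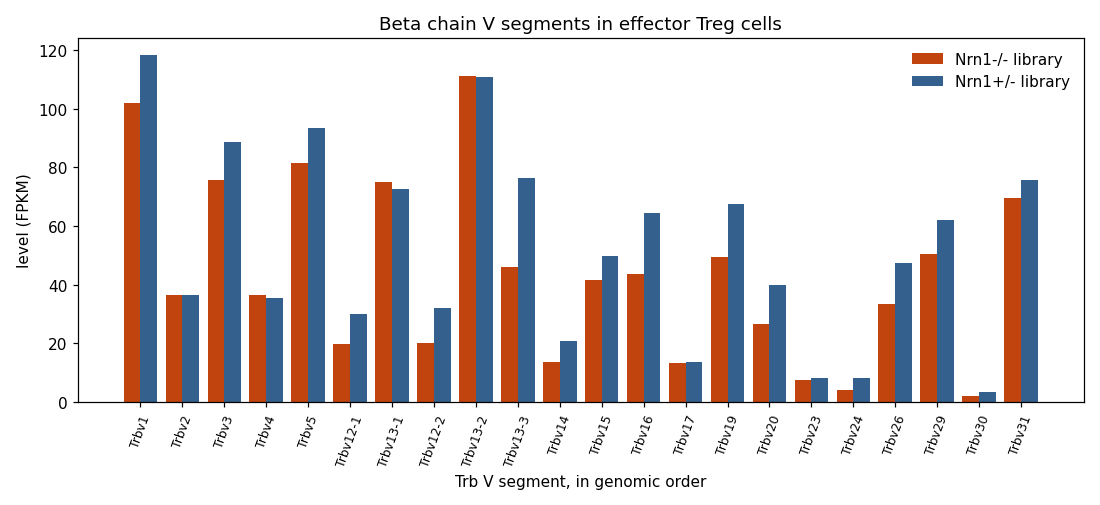
Levels (FPKM) of the 22 Trb V segments with a mean of at least 1 FPKM, in genomic order, with 1 bar for the Nrn1-/- library and 1 for the Nrn1+/- library. Trbv13-2 reaches 111 FPKM in both, while Trbv13-3 stands at 45.9 FPKM in Nrn1-/- cells, against 76.2 FPKM in Nrn1+/- cells.

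In the Vbeta8 family 1 member departed from the other two. Among the sequences printed above, Trbv13-2 had the same level in both libraries, and its fragment-based ratio was 1.004 with a 95% interval of 0.900 to 1.12 from 613 fragments in Nrn1-/- cells, against 731 in Nrn1+/- cells. Trbv13-1 was likewise close, at 75.2 FPKM in Nrn1-/- cells, against 72.7 FPKM in Nrn1+/- cells. Trbv13-3 was at 45.9 FPKM in Nrn1-/- cells, against 76.2 FPKM in Nrn1+/- cells, a ratio of 0.602 with an interval of 0.516 to 0.702 from 253 (Nrn1-/-) and 503 (Nrn1+/-) fragments. These intervals cover counting error only, with every recovered fragment taken as independent, and they say nothing of the spread between mice. Recovery was checked against whole steps only up to 15 fragments, and larger counts use the step found there. Whether PCR copies of a molecule were removed is not stated. If copies were counted, the intervals are too narrow even for counting error. The level of Trbv13-3 was 0.413 of that of Trbv13-2 in Nrn1-/- cells, against 0.688 of it in the Nrn1+/- library, a comparison within each library that does not depend on how the libraries were scaled. Together the 3 segments held 24.2% of the Trb V level in Nrn1-/- cells, against 22.5% in Nrn1+/- cells.

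The Vbeta5 segments Trbv12-1 and Trbv12-2 were both lower in the Nrn1-/- library, with ratios close to each other. Trbv12-2 was at 20.2 FPKM in Nrn1-/- cells, against 32.0 FPKM in Nrn1+/- cells, a ratio of 0.629 with an interval of 0.512 to 0.771. Trbv12-1, whose V exon is 89.1% identical to that of Trbv12-2, was at 19.9 FPKM in Nrn1-/- cells, against 30.1 FPKM in Nrn1+/- cells, a ratio of 0.660 with an interval of 0.537 to 0.809. The pair held 4.17% of the Trb V level in Nrn1-/- cells, against 5.37% in Nrn1+/- cells.

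Other beta chain segments were spread between these values. Trbv16, the Vbeta11 segment, was at 43.7 FPKM in Nrn1-/- cells, against 64.4 FPKM in Nrn1+/- cells, with an interval of 0.593 to 0.776 on the ratio. Trbv19, the Vbeta6 segment, was at 49.6 FPKM in Nrn1-/- cells, against 67.5 FPKM in Nrn1+/- cells, with an interval of 0.668 to 0.805. Both intervals lay wholly below 1, without either segment passing 1.5-fold on the log2 scale with its pseudocount. Trbv20, the Vbeta15 segment, was at 26.5 FPKM in Nrn1-/- cells, against 40.0 FPKM in Nrn1+/- cells, and Trbv14, the Vbeta13 segment, was at 13.5 FPKM in Nrn1-/- cells, against 20.8 FPKM in Nrn1+/- cells. Trbv3 was at 75.8 FPKM in Nrn1-/- cells, against 88.7 FPKM in Nrn1+/- cells. Trbv31, the Vbeta14 segment, which lies downstream of the constant segments in the opposite orientation, was at 69.5 FPKM in Nrn1-/- cells, against 75.8 FPKM in Nrn1+/- cells. In all, 10 of the 22 had an FPKM ratio of 0.75 or less and the other 12 a ratio above 0.8, a split noticed after the values were seen. The 10 held 27.0% of the Trb V level in Nrn1-/- cells, against 33.8% in Nrn1+/- cells.

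The other segments of the locus ranged more widely in ratio. Trbv2 was at 36.36 FPKM in Nrn1-/- cells, against 36.39 FPKM in Nrn1+/- cells, and Trbv4 was at 36.5 FPKM in Nrn1-/- cells, against 35.4 FPKM in Nrn1+/- cells. Trbv17, the Vbeta9 segment, was at 13.4 FPKM in Nrn1-/- cells, against 13.7 FPKM in Nrn1+/- cells. Trbv24 is annotated as a pseudogene and was at 4.16 FPKM in Nrn1-/- cells, against 8.35 FPKM in Nrn1+/- cells, on 24 (Nrn1-/-) and 58 (Nrn1+/-) fragments, with a ratio of 0.498 and an interval of 0.296 to 0.813. Trbv15, the segment of the Vbeta12 chain, was at 41.6 FPKM in Nrn1-/- cells, against 49.6 FPKM in Nrn1+/- cells, and Trbv29, of the Vbeta7 chain, was at 50.5 FPKM in Nrn1-/- cells, against 62.0 FPKM in Nrn1+/- cells. Trbv26, of the Vbeta3 chain, was at 33.4 FPKM in Nrn1-/- cells, against 47.6 FPKM in Nrn1+/- cells. Trbv23 and Trbv30 were below 10 FPKM, and Trbv21 below 1 FPKM, in both libraries. The 10 Trb V rows listed at 0 in both libraries were all pseudogene rows, and no Trb gene row was listed at 0 in both. At least 98.8% of the 50-base stretches of each Trb V segment occur in no other V segment.

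**Figure D2:**
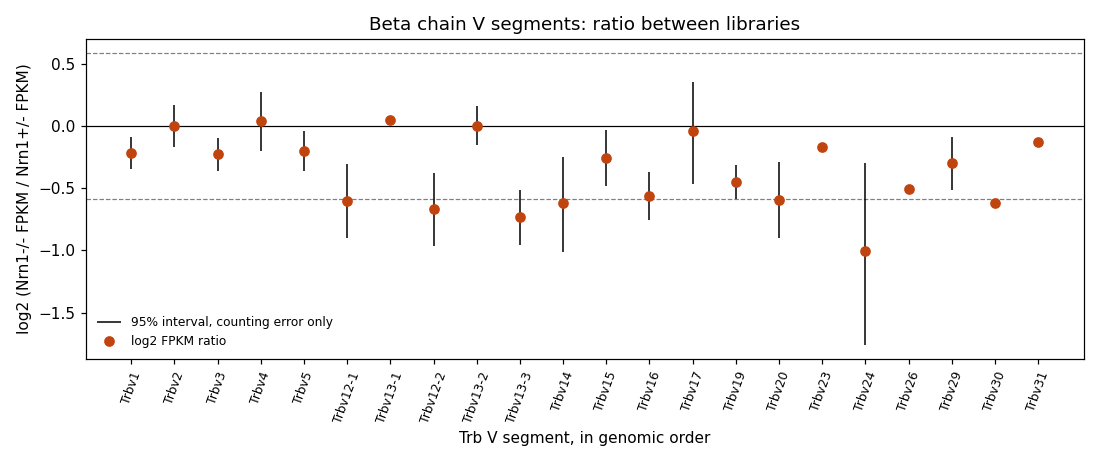
Log2 FPKM ratios (Nrn1-/- over Nrn1+/-, no pseudocount) of the 22 Trb V segments in genomic order. Vertical lines are 95% intervals of counting error for the 17 segments with a single annotated transcript, and dashed lines mark 1.5-fold. Without the pseudocount Trbv12-1, Trbv14, Trbv20 and Trbv30 lie past the lower dashed line, beside Trbv24, Trbv13-3 and Trbv12-2. Of the 17 intervals 13 lie wholly below 0, and those of Trbv2, Trbv4, Trbv13-2 and Trbv17 span it.

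Alpha chain V segments were also more often lower than higher in the Nrn1-/- library. Of the 63 Tra V rows averaging 1 FPKM or more, 43 (68.3%) were lower in Nrn1-/- cells, against 47.7% of all rows tested, and 20 were higher. Their median log2 ratio was -0.16, against 0.02 over all rows tested. Their summed level, over all 129 Tra V rows, was 469 FPKM in Nrn1-/- cells, against 524 FPKM in Nrn1+/- cells, a ratio of 0.895. Only 1 row, 1.59% of the 63, was at least 2-fold higher against 1.98% of all rows tested, and none was at least 2-fold lower against 1.11%, both counted with the pseudocount of 1 FPKM. That pseudocount sets the 0: in FPKM alone Trav6d-5 stood at 2.39 in Nrn1-/- cells, against 5.54 in Nrn1+/- cells, a ratio of 0.432 with a counting interval of 0.210 to 0.834, and Trav15-1-dv6-1 had an FPKM ratio of 0.425. With a pseudocount of 0.1 FPKM 2 Tra V rows were at least 2-fold lower. At 1.5-fold, 2 rows (3.17%) were higher against 7.51%, and 5 (7.94%) were lower against 5.27%. The 5 lower rows were Trav6d-5, Trav15-1-dv6-1, Trav17, Trav6-2 and Trav14-3, and the 2 higher rows were Trav13n-3 and Trav13d-4. The pseudocount sets these counts too. In FPKM alone Trav6-3, Trav13n-1, Trav13n-4, Trav6-5 and Trav14-2 were also more than 1.5-fold lower, and Trav9d-1 and Trav6-1 more than 1.5-fold higher. The difference between the alpha and the beta locus was not tested. Of the 20 Tra pseudogene rows, 14 were listed at 0 in both libraries. Some of these are only 155 to 168 bases long, shorter than the 200 and 212 bases taken off transcript length. Others have no 50-base stretch of their own, so a 0 in either kind is no measure of use.

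Use of the alpha chain was spread over many segments. Trav4-4-dv10, whose name marks that it can also join to delta segments, was at 34.7 FPKM in Nrn1-/- cells, against 34.9 FPKM in Nrn1+/- cells. It held 7.39% of the summed Tra V level in Nrn1-/- cells, against 6.66% in Nrn1+/- cells, the highest share of any Tra V segment in either. Trav7-5 was at 21.5 FPKM in Nrn1-/- cells, against 22.8 FPKM in Nrn1+/- cells, and Trav6-7-dv9 was at 16.7 FPKM in Nrn1-/- cells, against 19.5 FPKM in Nrn1+/- cells. Trav4-3, Trav13-1, Trav14n-3, Trav8-1, Trav14d-3-dv8, Trav7-4 and Trav3-3 followed, from 12.6 to 17.0 FPKM in the Nrn1-/- library and from 14.2 to 19.3 FPKM in Nrn1+/- cells. None of these 10 passed 1.5-fold, where 7.51% of all rows tested were higher and 5.27% lower by that much. In each library 16 segments were enough to hold 50% of the Tra V level, and the effective number was 51.2 in Nrn1-/- cells, against 52.7 in Nrn1+/- cells. The 10 rows named dv summed to 83.8 FPKM in Nrn1-/- cells, against 95.8 FPKM in Nrn1+/- cells, or 17.9% (Nrn1-/-) and 18.3% (Nrn1+/-) of the Tra V level.

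Among Tra V segments with a mean of at least 5 FPKM, the lowest ratio was that of Trav17, at 5.41 FPKM in Nrn1-/- cells, against 10.1 FPKM in Nrn1+/- cells, a log2 ratio of -0.79. Trav17 shares no 50-base stretch with another V segment. Trav14-3 was at 4.44 FPKM in Nrn1-/- cells, against 7.83 FPKM in Nrn1+/- cells, a ratio of 0.568 with an interval of 0.361 to 0.875. Trav14-2, Trav6-5 and Trav7-1 came next, with log2 ratios of -0.56, -0.52 and -0.44. The highest ratios were those of Trav6-1, Trav1, Trav8d-2, Trav5-1 and Trav16, of which Trav8d-2, Trav5-1 and Trav16 turned lower with each library summed to 1000000 FPKM. That scaling moved the median of all rows tested by -0.27, so this turn is not particular to them. Trav6-1 was at 6.26 FPKM in Nrn1-/- cells, against 4.15 FPKM in Nrn1+/- cells, on 34 (Nrn1-/-) and 27 (Nrn1+/-) fragments, and its interval of 0.882 to 2.59 includes 1. The 1 row past 2-fold, Trav13n-3, was at 2.97 FPKM in Nrn1-/- cells, against 0.775 FPKM in Nrn1+/- cells, on 16 (Nrn1-/-) and 5 (Nrn1+/-) fragments, and only 17.4% of its 50-base stretches occur in no other V segment.

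**Figure D3:**
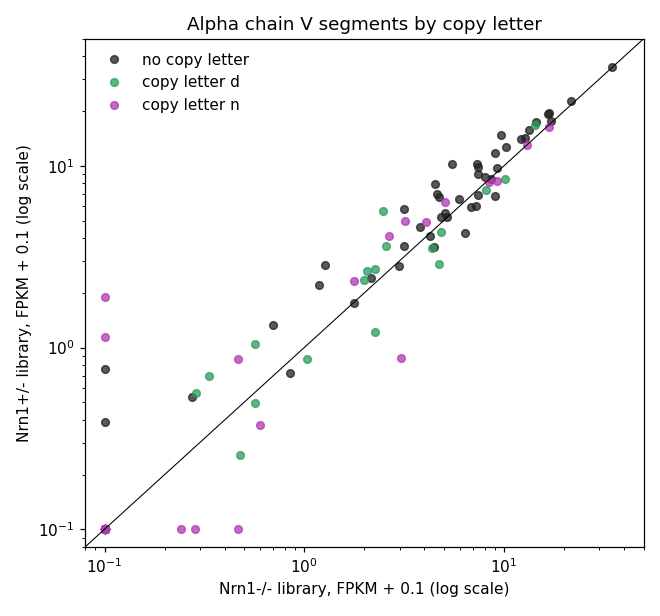
Levels of the Tra V rows in the Nrn1-/- library (horizontal) and the Nrn1+/- library (vertical), FPKM plus 0.1 on log axes, with points coloured by copy letter and the line of equal level. Points cluster along the line above 5 FPKM and scatter most below 1 FPKM, and Trav4-4-dv10 is the point farthest to the upper right, at 34.7 FPKM in Nrn1-/- cells, against 34.9 FPKM in Nrn1+/- cells.

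Copies too alike to be told apart were mostly listed at 0. Of the 109 Tra V gene rows, 37 had no 50-base stretch of their own, and 34 of these were listed at 0 in both libraries. None of the 72 gene rows with at least 1 such stretch was listed at 0 in both. Trav4d-4 and Trav4n-4, identical to each other, were both listed at 0, while Trav4-4-dv10, which differs from them at the capitals printed above, had the highest level. A 0 in such a copy is therefore not a measure of its use. The gene rows with up to 20% of their stretches unique had a median of 0.936 FPKM in Nrn1-/- cells, against 0.775 FPKM in Nrn1+/- cells. Those with 20% to 60% unique had medians of 6.998 FPKM in Nrn1-/- cells, against 7.55 FPKM in Nrn1+/- cells, and those above 60% had 5.88 FPKM in Nrn1-/- cells, against 6.47 FPKM in Nrn1+/- cells.

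**Figure D4:**
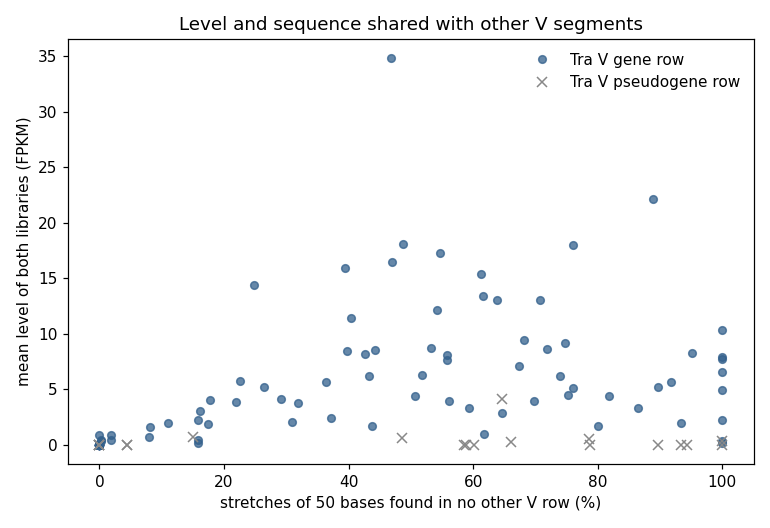
Mean level of both libraries (FPKM, vertical) of each Tra V row against the percent of its 50-base stretches found in no other V row (horizontal), with circles for gene rows and crosses for pseudogene rows. Gene rows at 0 FPKM stand at 0% on the horizontal axis, where 34 of 37 were listed at 0 in both libraries.

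Rows grouped by copy letter held similar shares in both libraries. Rows with no copy letter summed to 340 FPKM in Nrn1-/- cells, against 388 FPKM in Nrn1+/- cells, or 72.4% (Nrn1-/-) and 74.1% (Nrn1+/-) of the Tra V level. Rows lettered d held 13.1% in Nrn1-/- cells, against 12.1% in Nrn1+/- cells, and rows lettered n 14.5% in Nrn1-/- cells, against 13.8% in Nrn1+/- cells. Of the 39 d rows 21 were listed at 0 in both libraries, and of the 35 n rows 18, against 9 of the 55 rows with no letter. One of the rows named Trav7n-6, listed at 0 in both, lies among the d rows, so letters and blocks differ there. The median percent of unique 50-base stretches was 0.3 for d rows, 0.0 for n rows and 67.4 for rows with no letter. These shares therefore do not measure use of the blocks.

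Copies were also summed per subgroup. Summing brings back no fragments for copies listed at 0. Rows listed at 0 in both libraries were 7 of 9 in Trav5, 5 of 9 in Trav4 and 0 of 5 in Trav8. How far this shapes the subgroup shares was not tested. Of the 18 subgroups tested, 16 (88.9%) were lower in Nrn1-/- cells, against 47.7% of all rows tested, and the median log2 ratio was -0.12. Trav7 held 13.1% of the Tra V level in Nrn1-/- cells, against 12.8% in Nrn1+/- cells, and Trav6 held 12.5% in Nrn1-/- cells, against 12.98% in Nrn1+/- cells. With Trav14, Trav4 and Trav8 these made up 58.3% in Nrn1-/- cells, against 57.6% in Nrn1+/- cells. Trav15 and Trav17 were at least 1.5-fold lower, with log2 ratios of -0.87 and -0.79, which is 11.1% of the 18 against 5.27% of all rows tested. Trav1, a single segment, had a log2 ratio of 0.36, and Trav16, with 3 copies, 0.06.

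**Figure D5:**
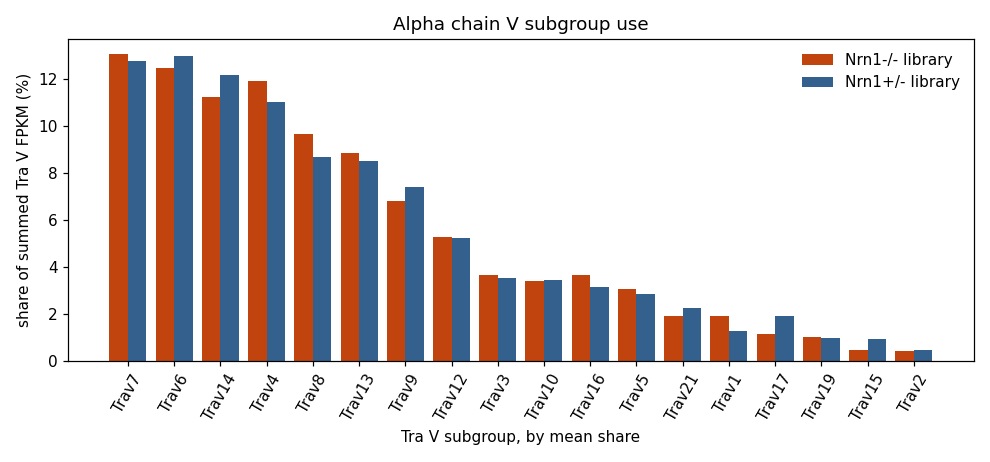
Share of the summed Tra V level (percent) held by each of the 18 Tra V subgroups tested, ordered by mean share, with 1 bar for the Nrn1-/- library and 1 for the Nrn1+/- library. Trav7 is highest by mean share, at 13.1% in Nrn1-/- cells, against 12.8% in Nrn1+/- cells.

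Position along the locus was set beside the levels as a description. Across the 63 Tra V rows tested, which lie 344 to 1792 kilobases upstream of Trac, Spearman's rho between distance and mean level was -0.36, and between distance and log2 ratio 0.24. Across 21 Trb V rows, leaving out the inverted Trbv31, rho between distance from Trbc1 and mean level was 0.50, and between distance and log2 ratio 0.38. Segments share their libraries and, in the Tra locus, their sequence, so these values carry no test.

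Segments that innate-like T cells use were looked at by name. Natural killer T cells of the invariant kind use Trav11 with Traj18. Trav11 and Trav11d were listed at 0 in both libraries and have no 50-base stretch of their own. Trav11n, annotated as a pseudogene, was listed at 0 in Nrn1-/- cells and reached 1.04 FPKM in Nrn1+/- cells, on 7 fragments. Mucosal-associated invariant T cells use Trav1 with Traj33. Trav1 was at 8.96 FPKM in Nrn1-/- cells, against 6.75 FPKM in Nrn1+/- cells, and conventional T cells use it too. Summed markers of innate-like T cells were at 1.101 FPKM in Nrn1-/- cells, against 1.16 FPKM in Nrn1+/- cells. Zbtb16, the transcription factor of innate-like T cells, was at 0.619 FPKM in Nrn1-/- cells, against 0.616 FPKM in Nrn1+/- cells. All 84 D and J rows, Traj18 and Traj33 included, were listed at 0 in both libraries. They are 11 to 72 bases long, shorter than the 200 and 212 bases that the low values show being taken off transcript length, so their 0 is no measure of joining.

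Gamma and delta segments were low. Trdv1 was at 5.56 FPKM in Nrn1-/- cells, against 6.04 FPKM in Nrn1+/- cells, and Trdc, the delta constant segment, was at 1.76 FPKM in Nrn1-/- cells, against 1.85 FPKM in Nrn1+/- cells. Trdv5 (chr14:54148662-54149294) lies inverted and overlaps the downstream end of Trdc (chr14:54142851-54148868). How fragments of the overlap were assigned is unknown, as the strand setting is not stated. Trdv5 was at 1.61 FPKM in Nrn1-/- cells, against 2.84 FPKM in Nrn1+/- cells, with an interval of 0.285 to 1.07 on the ratio. Trdv4 was at 1.78 FPKM in Nrn1-/- cells, against 2.43 FPKM in Nrn1+/- cells, and Trdv2-2 was at 1.30 FPKM in Nrn1-/- cells, against 2.11 FPKM in Nrn1+/- cells. Trgv2 was at 2.01 FPKM in Nrn1-/- cells, against 0.973 FPKM in Nrn1+/- cells, on 23 (Nrn1-/-) and 14 (Nrn1+/-) fragments, with an interval of 1.02 to 4.33, and it was the 1 gamma or delta V row at least 1.5-fold higher, against 7.51% of all rows tested. The gamma and delta V rows together summed to 12.4 FPKM in Nrn1-/- cells, against 14.6 FPKM in Nrn1+/- cells. The 4 gamma constant rows named Tcrg-C, outside the symbol rule, summed to 13.1 FPKM in Nrn1-/- cells, against 14.4 FPKM in Nrn1+/- cells. The summed gamma delta T cell markers were 8.27 FPKM in Nrn1-/- cells, against 9.87 FPKM in Nrn1+/- cells. That list includes Trdc itself and Tcrg-C1, at 3.76 FPKM (Nrn1-/-) and 4.71 FPKM (Nrn1+/-). Most of each sum is thus receptor rows already counted above. Sox13, from the same list, was at 0.365 FPKM (Nrn1-/-) and 0.229 FPKM (Nrn1+/-). The part of gamma delta T cells in these values was not tested.

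The signalling chains that carry the receptor to the surface were lower in the Nrn1-/- library as well. All 4 tested CD3 chains were lower, against 47.7% of all rows tested, with a median log2 ratio of -0.33. None passed 1.5-fold, where 5.27% of all rows tested were at least 1.5-fold lower. Cd3g was at 186 FPKM in Nrn1-/- cells, against 250 FPKM in Nrn1+/- cells, and Cd3e was at 158 FPKM in Nrn1-/- cells, against 180 FPKM in Nrn1+/- cells. Cd247, the zeta chain, was at 170 FPKM in Nrn1-/- cells, against 218 FPKM in Nrn1+/- cells. Ptcra, which pairs with the beta chain in thymocytes, was at 0.116 FPKM in Nrn1-/- cells, against 0.0536 FPKM in Nrn1+/- cells. Cd4, the coreceptor of these cells, was at 155 FPKM in Nrn1-/- cells, against 161 FPKM in Nrn1+/- cells.

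The recombination machinery was near 0 where it is specific to developing lymphocytes. Rag1, a subunit of the recombinase, was at 0.0391 FPKM in Nrn1-/- cells, against 0.0685 FPKM in Nrn1+/- cells, and Rag2, its partner, was listed at 0 in both. Dntt, the polymerase that adds bases at the joints, was at 0.247 FPKM in Nrn1-/- cells, against 0.288 FPKM in Nrn1+/- cells. Of the 7 recombination and joining genes tested, 3 were lower and 4 higher, where 47.7% of all rows tested were lower. Xrcc6, a DNA end-binding protein, was the 1 gene at least 1.5-fold higher, against 7.51% of all rows tested. It was at 43.8 FPKM in Nrn1-/- cells, against 28.1 FPKM in Nrn1+/- cells. Of 9 transcription factors that act at the receptor loci, 5 were lower and 4 higher. None of the 9 passed 1.5-fold, where 7.51% of all rows tested were higher and 5.27% lower by that much. Ets1 had the lowest log2 ratio of these factors, -0.43, at 156 FPKM in Nrn1-/- cells, against 210 FPKM in Nrn1+/- cells.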

How the data were processed

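Poly(A) RNA of sorted effector regulatory T cells was measured in 1 library per genotype, grouped by the genotype labels. Per the labels, libraries were randomly primed with an NEBNext Ultra kit. The deposited values are FPKM per gene, a unit read from the values and from the submitters' processing notes, which name Cuffnorm beside TopHat, Cuffdiff and FastQC and the builds mm10 and GRCm38. For annotation, filters, strand setting and any scaling between libraries, nothing is stated in the sources used here. If fragments matching several segments were shared out or dropped, near-identical V copies are misread. FPKM divides by an effective length, so short rows are unstable.

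Rows were chosen by symbol and type, and 11 T cell receptor rows with other symbols (Tcrg-V, Tcrg-C and alike) lie outside. Ratios used a pseudocount of 1 FPKM, a minimum mean of 1 FPKM and 2-fold and 1.5-fold thresholds. Total depth per library is unknown. Whole fragments of V rows with 1 transcript were recovered from the spacing of low values. FPKM times length less 200 bases (Nrn1-/-) or 212 bases (Nrn1+/-) lay within 0.1 of whole steps for 97.4% of genes fitted per library. Those were 806 (Nrn1-/-) and 911 (Nrn1+/-) genes with 1 transcript of 330 to 600 bases and up to 15 fragments. Chance gives 20% for a step fixed beforehand, but here step and bases taken off were chosen to make the share highest. The fit was tested on simulated data. Larger counts use the same step and were not checked against whole steps. Ratio intervals are exact conditional 95% intervals. Stretches of 50 bases and V exons came from GENCODE M21 on GRCm38 with edlib 1.3.9.post1, and recombination signals were not analysed here. Named segments were all C rows, the 10 highest shares, the 5 highest and 5 lowest ratios among Tra and Trb rows averaging 5 FPKM or more, every gamma or delta V row above 1 FPKM and invariant T cell segments. Outside this rule, Trav13n-3, Trav13d-4, Trav6d-5, Trav6-2, Trav15-1-dv6-1, Trav4d-4, Trav4n-4 and Trav7n-6 were named after their values were seen. So were Trbv15, Trbv20, Trbv21, Trbv23, Trbv26, Trbv30 and the Tra V subgroups. The members and lists were chosen with earlier results of these data known. Other pseudocounts, minimum levels and scalings, leaving out pseudogenes and summing copies were tried.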

Additional observations from a re-analysis of the deposited data

How the results depend on the processing

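No paired analysis was possible because each genotype has 1 library, and for the same reason no library could be left out. The median log2 ratios of Tra, Trb and gamma and delta V segments (-0.16, -0.27 and -0.31) stayed negative under every alternative tried. The gamma and delta median rests on only 5 rows, and Trgv2, the only gamma row among them, was higher, at 0.61. They were -0.175, -0.275 and -0.43 with a pseudocount of 0.1 FPKM and -0.076, -0.23 and -0.13 with 5 FPKM. With no minimum level they were -0.16, -0.25 and -0.26, and with a minimum of 5 FPKM -0.11, -0.25 and -0.10. The value of -0.10 is that of Trdv1 alone, the only gamma or delta V row averaging 5 FPKM or more. Upper quartile scaling gave -0.26, -0.40 and -0.39, a sum of 1000000 FPKM gave -0.41, -0.56 and -0.55, and scaling to protein-coding genes gave -0.25, -0.40 and -0.39. Without pseudogenes Tra and Trb stood at -0.14 and -0.25, and with copies summed Tra stood at -0.12. The summed Tra, the summed Trb and Trac (-0.16, -0.27 and -0.21) were -0.29, -0.40 and -0.34 under upper quartile scaling, -0.45, -0.56 and -0.50 under the sum and -0.29, -0.40 and -0.34 under protein-coding scaling. These scalings moved the median of all rows tested by -0.12, -0.27 and -0.11, so the V values moved together with all rows. Trav14n-3, Trbv13-1, Trbv13-2 and Trbv4 turned from slightly higher to lower under each scaling, and Trav16, Trav5-1 and Trav8d-2 also did under the sum. The count of Tra V rows at least 2-fold lower was 2 with a pseudocount of 0.1 FPKM and with no minimum level, 1 under upper quartile and protein-coding scaling and 5, and of Trb V rows 2, under the sum, against 0 in both loci as reported. With stretches of 75 bases, chosen after the data were seen, 34 gene rows without a unique stretch were again listed at 0. Depth limits low segments: on 34 (Nrn1-/-) and 27 (Nrn1+/-) fragments the interval of Trav6-1 still spans 1.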
